A study of Mus musculus with 1 sample.

Results

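Glutathione transferases were followed through single cells of mouse gastric organoids, as 10 genes taken by name from the 32285 genes of the deposited matrix. The 10 are Gsta1, Gsta2, Gsta3 and Gsta4 of the alpha class, Gstm1 (mu), Gstp1 (pi), Gsto1 (omega), Gstt1 (theta), and the membrane-bound Mgst1 and Mgst3. They had been picked with earlier results of the same cells known, and the spread of each gene over cells was among the reasons. That spread is therefore a description, and no test was made of it. Gstm1, Gstp1 and Gsto1, each the only member of its class, were broad, with a count in at least 50% of cells. The alpha and microsomal members were divided. Genes of the mu, pi and omega classes outside the 10 were not all broad, as given below. Of the 10 genes 6 were broad, against 15.4% of the 8653 genes with at least 100 counts. Gsta1 and Gsta2 were confined to few cells: 10 cells held 50.5% of all Gsta1 counts, and 62 cells held 75.5% of Gsta1 and 78.1% of Gsta2.

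The library came from wild type organoids, which are epithelial cells of the stomach grown as hollow spheres in a gel. They were untreated and harvested on day 7 after seeding, and the KP and EKP organoids that the design text also names were not analysed here. How many mice the culture came from, and their sex, is not given in the labels. The 62 cells rich in Gsta1 stand apart in sex-linked RNA, described below, and whether they came from another mouse or culture than the remaining cells was not tested. The matrix also counts 12 multiplexing tags, short oligonucleotides that mark a suspension before pooling; CMO301 was highest in 1062 of the cells kept and CMO302 in 830. The labels do not tie a tag to a suspension, so there was 1 sample and no replicate. The counts are of unique molecular identifiers (UMIs), 1 per captured RNA molecule.

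Of 1991 barcodes, 1892 passed the filter of 500 genes and 20% mitochondrial UMIs and are called cells below. They held a median of 8513 gene UMIs each (range 890 to 47183) and a median of 2220 genes. A doublet caller marked 12 of them (0.634%), and these were kept. Every interval below is at 95% and covers counting error only. Epcam, Krt8, Krt18, Krt19 and Cldn4, which mark epithelium, were all detected, at a summed level of 4107 CPM. CPM here is a gene's UMIs per 1000000 gene UMIs of the cells named. Since the kit counts molecules at their 3' end, CPM needs no scaling by gene length. Summed UMIs of 14 marker sets put endocrine, hepatocyte, fibroblast and endothelial genes each below 0.3 CPM.

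Glutathione transferases join the tripeptide glutathione to reactive, electron-poor molecules, which makes these more soluble and ready for export from the cell. The cytosolic enzymes work as dimers and fall into classes by sequence, while the microsomal enzymes are a separate family embedded in membranes. In the digestive tract they are known as a defence against dietary toxins and products of lipid oxidation, and several are textbook targets of the transcription factor NRF2, the product of Nfe2l2.

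Gsta1, Gsta2 and Gsta4 sit in 1 stretch of mouse chromosome 9 (GRCm38, gene models of GENCODE M21). Gsta4 (ENSMUSG00000032348) spans chr9:78182774-78209349 on the plus strand. Gsta1 (ENSMUSG00000074183) follows at chr9:78230656-78242684, plus. Gm3776 (ENSMUSG00000111709), an alpha-class gene outside the 10, lies at chr9:78257129-78269166, plus, and Gsta2 (ENSMUSG00000057933) at chr9:78331018-78355788, minus. The remaining genes are elsewhere: Gsta3 (ENSMUSG00000025934) at chr1:21240589-21265661, plus, and Mgst3 (ENSMUSG00000026688) at chr1:167371966-167393841, minus. Gstm1 (ENSMUSG00000058135) is at chr3:108012255-108017973, minus, and Mgst1 (ENSMUSG00000008540) at chr6:138140316-138156755, plus. Gstt1 (ENSMUSG00000001663) is at chr10:75783813-75798584, minus. Gstp1 (ENSMUSG00000060803) is at chr19:4035407-4037985, minus, and Gsto1 (ENSMUSG00000025068) at chr19:47854970-47864790, plus. All are annotated as protein-coding.

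How far Gsta1, Gsta2 and Gm3776 can be told apart by a short read decides what their counts mean, so their coding sequences were aligned. Gsta1 and Gm3776 were 99.7% identical, with 2 differing positions in 672, and Gsta1 and Gsta2 97.5%, with 17. Coding bases 601 to 660, counted from the start codon in the GENCODE transcripts, show this; capitals mark bases that differ from Gsta1.
Gsta1: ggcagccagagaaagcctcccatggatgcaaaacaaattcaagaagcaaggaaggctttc
Gm3776: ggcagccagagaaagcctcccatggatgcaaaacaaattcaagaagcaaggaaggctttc
Gsta2: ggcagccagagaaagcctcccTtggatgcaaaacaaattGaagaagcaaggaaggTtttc
In this stretch Gsta2 differed from Gsta1 at 3 of 60 bases and Gm3776 at 0. Nearer the 3' end, where the kit reads, the pairs parted. Of 410 windows of 91 bases in the last 500 transcript bases of Gsta1, 4 (0.976%) occurred unchanged in Gsta2, against 318 (77.6%) in Gm3776. Gsta1 and Gsta2 counts can thus be separated over most of that end, while those of Gsta1 and Gm3776 are uncertain, since the treatment of reads with several matches is not given in the sources used here. Gstp1 has a similar neighbour, Gstp2, which held 279 of its 410 windows (68.0%). No window of Gsta1 was found in Gsta3 or Gsta4, and none of Gstm1 in Gstm2.

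The bases before the start sites of the 3 near copies are shown because the 3 genes were high in the same few cells. They come from RefSeq (GRCm38.p6), 250 bases 5' to 3' up to each start, and capitals mark the longest run that all 3 share.
Gsta1, chr9:78230419-78230668, plus: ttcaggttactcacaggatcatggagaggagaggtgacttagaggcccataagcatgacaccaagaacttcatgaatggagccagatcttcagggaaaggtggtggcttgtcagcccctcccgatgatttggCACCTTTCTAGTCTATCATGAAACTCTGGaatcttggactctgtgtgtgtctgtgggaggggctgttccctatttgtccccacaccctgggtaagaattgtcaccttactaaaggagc
Gm3776, chr9:78256879-78257128, plus: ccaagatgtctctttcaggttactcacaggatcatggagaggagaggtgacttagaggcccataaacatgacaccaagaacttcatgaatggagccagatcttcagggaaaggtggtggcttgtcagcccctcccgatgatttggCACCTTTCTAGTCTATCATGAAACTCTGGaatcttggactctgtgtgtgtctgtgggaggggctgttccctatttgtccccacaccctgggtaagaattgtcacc
Gsta2, chr9:78347146-78347395, minus: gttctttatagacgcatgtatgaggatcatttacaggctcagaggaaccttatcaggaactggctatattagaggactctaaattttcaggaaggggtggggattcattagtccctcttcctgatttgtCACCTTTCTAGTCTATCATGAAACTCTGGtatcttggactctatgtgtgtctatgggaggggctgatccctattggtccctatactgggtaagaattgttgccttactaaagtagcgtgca
The shared run is 29 bases long and is held by 3 of 32851 such windows of the RefSeq table, these 3. It was picked as common to these 3 near copies, so nothing is read from that count. Whether it has a part in the levels was not tested. The Gsta1 and Gm3776 windows are offset by 13 bases, and over the 237 positions where they overlap 1 differed (99.6% identical). Gsta1 and Gsta2 were 73.3% identical over 251 aligned positions, with gaps inside the alignment counted as differences. The Gsta2 window lies inside the GENCODE span of the gene, because 1 annotated transcript starts further upstream. The letters TGACNNNGC, the core of the antioxidant response element to which NRF2 binds, were searched for on both strands, as the only motif. They occurred in the windows of Gsta3 and Mgst1, 2 of the 9 genes with an entry in the table (11 start sites), and in 10.2% of all windows. They were not found in these 250 bases of Gsta1, Gsta2 or Gm3776. Bases further upstream and variant forms of the element were not searched, so it cannot be said that a gene lacks the element.

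The levels of the 10 genes covered a wide range, and they summed to 2706 CPM. Mgst1, a microsomal enzyme of the endoplasmic reticulum and outer mitochondrial membrane, was highest at 650 CPM (639 to 661). Gsta4, which conjugates the lipid peroxidation product 4-hydroxynonenal, followed at 620 CPM (610 to 631). Gsto1, whose active site uses cysteine and which reduces dehydroascorbate and methylated arsenic, was at 580 CPM (569 to 591). The intervals of these 3 do not overlap, but they lie close together and stand apart from the rest.

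A middle group held Gstm1 at 244 CPM (237 to 251), Gstp1 at 171 CPM (166 to 177), Gsta3 at 163 CPM (158 to 169) and Gsta1 at 131 CPM (127 to 137). Gstp1, the pi-class enzyme that many epithelia make, and Gsta3 had overlapping intervals, so their order is not resolved. Gstt1, a theta-class enzyme that acts on small halogenated compounds, was at 79.4 CPM (75.5 to 83.4), and Mgst3 at 62.8 CPM (59.4 to 66.3). Gsta2 was lowest at 3.18 CPM (2.45 to 4.06), from 64 UMIs.

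Detection followed the order of levels apart from Gsta1, and from Gsto1 and Gsta4, whose intervals overlapped. A UMI was found in 95.2% of cells for Mgst1 (94.1% to 96.1%), 91.8% for Gsto1 (90.5% to 93.0%) and 90.8% for Gsta4 (89.4% to 92.1%). The shares were 71.8% for Gstm1 (69.7% to 73.8%), 70.4% for Gstp1 (68.3% to 72.5%) and 58.6% for Gsta3 (56.4% to 60.8%). These are the 6 broad genes, those with a UMI in at least 50% of cells. Gstt1 stood just below that line, at 48.9% (46.7% to 51.2%), with an interval that includes it, and Mgst3 at 40.2% (38.0% to 42.4%). Gsta1, at a level between those of Gsta3 and Gstt1, had a UMI in only 27.7% of cells (25.7% to 29.8%), less than either. Gsta2 had one in 1.85% (1.29% to 2.56%).

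A share of cells depends on depth, so it was divided by the share that the same level would give if spread evenly over all cells at their own depths. A quotient near 1 means that detection is what counting alone would leave. Gsta1 would then have reached 67.9% of cells, and its quotient was 0.409. That of Gsta2 was 0.560. The other genes ran from 0.788 for Gsta3 and 0.848 for Gstm1 to 0.974 for Mgst1, and the median over 8653 genes was 0.968. A gene was called confined where the share was under 50% and the quotient under 0.8. Gsta1 and Gsta2 were confined and Gstt1 and Mgst3 were neither broad nor confined; of the 8653 genes, 2.11% were confined. Gsta3 had a quotient just inside that line but was broad. Only 22 of the 8653 genes had a quotient at or below that of Gsta1. Gsta2 has too few UMIs to be among the 8653.

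**Figure D1:**
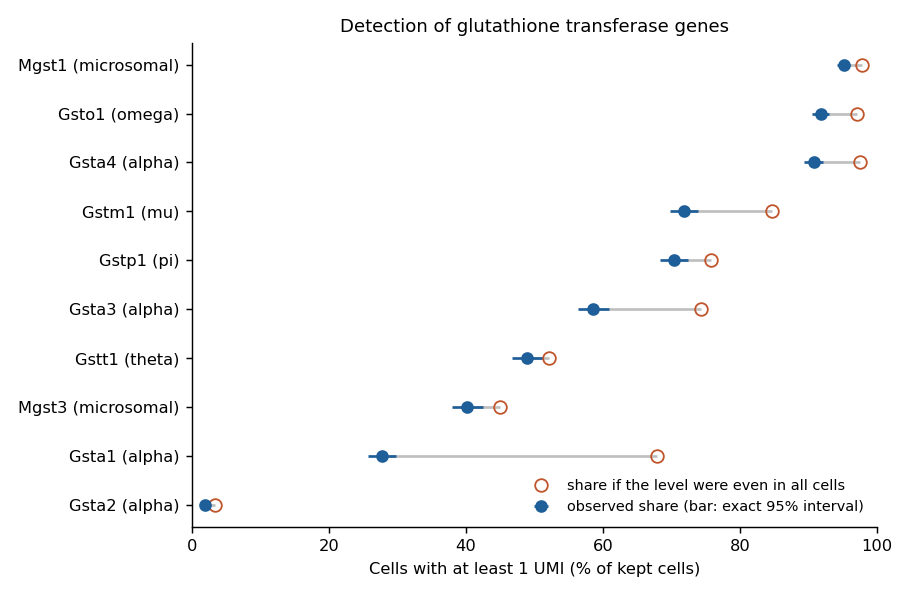
Share of kept cells with at least 1 UMI of each gene, in percent, with the gene's class in brackets. Filled points are observed shares with exact 95% intervals, and open points are the shares an even level would give; the gap is widest for Gsta1, at 27.7% against 67.9%.

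At equal depth the shares were lower and kept much the same order. With each cell thinned to 3000 UMIs, which left 1835 cells and dropped 57 shallower ones, Mgst1 had a UMI in 81.0% of cells, Gsta4 in 71.0% and Gsto1 in 70.6%. Gstm1 was then at 43.5%, Gstp1 at 37.2% and Gsta3 at 31.8%, all below the line for broad genes. Gsta1 was at 11.6%, below Gstt1 at 20.4% and Mgst3 at 15.5%, and Gsta2 was at 0.490%, near the level of single UMIs. At this depth the quotient of Gsta2 was 0.821 and it was no longer confined, while Gsta1, at 0.479, still was.

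The number of cells that carried most of a gene's RNA set Gsta1 apart. The cells richest in Gsta1 reached 50% of its 2645 UMIs with 10 cells. For the 8 members other than Gsta1 and Gsta2, with 1263 to 13079 UMIs, this took from 210 cells (Mgst3) to 434 cells (Mgst1). Gsta2 has too few UMIs for that comparison. Its 64 UMIs reached 50% with 6 cells, where Gstm3 took 25 cells for 57 UMIs and Gstcd 37 cells for 78 UMIs. The highest cell held 370 UMIs of Gsta1, while the highest cell for Gstt1 held 7 and for Gstm1 29. Single cells also stood out for Gsto1, with up to 314 UMIs, and Gsta4, with up to 204, although both genes were in over 90% of cells.

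**Figure D2:**
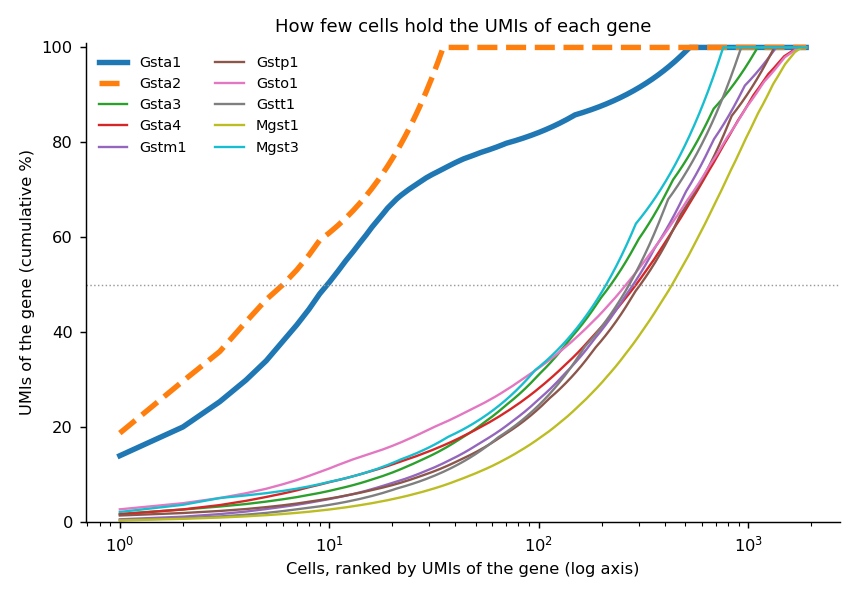
Cumulative percent of each gene's UMIs (vertical) against the number of cells, ranked from the cell with most UMIs of that gene (log axis). The dotted line is at 50%, which Gsta1 reached with 10 cells and the genes other than Gsta2 with 210 to 434; Gsta2, with 64 UMIs, could reach it only with few cells.

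To see which cells these were, cells were clustered on other genes, with every glutathione transferase gene left out, as well as genes of the cell cycle, the sex chromosomes and the mitochondrial genome. The members could still be linked to genes that shaped the clusters, so differences between clusters are described and not tested. There were 7 clusters, numbered by size. Cluster 1 (434 cells) was led by Ly6m, Sprr1a and Ndrg1, cluster 2 (419) by Cxcl5 and Cxcl2, and cluster 3 (308) by Aox3 and Scgb3a1. Cluster 4 (289) was led by Mt1, 2610528A11Rik and Ndrg1, cluster 5 (288) by Psca and Prss22, and cluster 6 (92) by the mitotic genes Aspm, Knl1 and Top2a. Cluster 7 had 62 cells, or 3.28% of all (2.52% to 4.18%). Among all genes, those leading it were Gm3776, Cyba, Gsta1, Reg3g and Gkn3, followed by Tff1, Sptssb, Gsta2, Sult1c2 and Pigr. With 1 pit marker (Tff1) and 1 mucous neck marker (Gkn3) among these, it was given no cell type name.

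Gsta1 was at 1966 CPM in cluster 7 (1881 to 2054), against 37.9, 27.5, 29.1, 48.6, 30.7 and 36.9 CPM in clusters 1 to 6. The 1830 cells outside cluster 7 were at 33.9 CPM, a ratio of 58.0 (53.1 to 63.5). Gsta1 encodes an alpha-class subunit that acts on a wide range of substrates, organic peroxides among them. Gsta2, a close relative with similar substrates, was at 49.2 CPM in cluster 7 (36.5 to 64.9), from 50 UMIs, and at 0.733 CPM outside, from 14 UMIs. Its ratio was 67.1 (36.5 to 131), and clusters 4 and 6 had no UMI of it, with upper interval bounds of 1.95 and 2.83 CPM. The ratios of Gsta1 and Gsta2 have overlapping intervals. Cluster 7 held 75.6% of the UMIs of the pair (73.9% to 77.2%) and 5.05% of all gene UMIs.

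Within cluster 7 Gsta1 was far from uniform. The median was 7 UMIs per cell, 4 of 62 cells had none, 20 had 10 to 99, and 6 had at least 100. Outside it, 1363 of 1830 cells had none, 371 had 1, 92 had 2 to 9, and 4 had 10 to 25. Low counts of Gsta1 were thus spread over all other clusters: a UMI was found in 25.5% of those cells, 0.903 of what an even level would give. For the 10 leading genes of cluster 7, the level outside was between 0.658% (Cyba) and 3.40% (Pigr) of the level inside, with Gsta1 at 1.72%, Gsta2 at 1.49% and Gm3776 at 1.02%. Per 100 UMIs of Gsta1 there were 2.50 of Gsta2 in cluster 7 (1.85 to 3.31) and 2.16 outside (1.18 to 3.66), and 9.11 of Gm3776 in cluster 7 (7.78 to 10.6) and 5.41 outside (3.73 to 7.60). No cell type in this library is known to lack Gsta1, so how much of the low counts came from free RNA was not tested. In the 99 barcodes that failed the filter, Gsta1 was at 320 CPM (227 to 440, from 38 UMIs), above the 33.9 CPM of the cells outside cluster 7. Gsto1 was at 582 CPM there (453 to 736), close to its level over all cells, Gsta4 at 371 (270 to 498) and Mgst1 at 245 (164 to 351), both below theirs.

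The 10 cells richest in Gsta1, chosen for their Gsta1 counts, were all in cluster 7. They held 370, 160, 141, 120, 108, 108, 92, 87, 86 and 64 UMIs of Gsta1. In the highest of them Gsta1 made up 0.784% of 47183 UMIs, and this cell also had the largest total of the library. Together the 10 cells held 1.23% of all gene UMIs, but 45.3% of Gsta2 and 64.5% of Gm3776. They held 7.97% of Gsta4, 9.40% of Gsto1 and 6.02% of Mgst3, and no more than their part of Gstm1 (0.937%) and Mgst1 (0.971%). Of the 10, 5 carried tag CMO301 and 5 CMO302, and none was a called doublet. Their highest tag made up 57.3% to 93.2% of the tag UMIs of a cell. Without them Gsta1 was at 65.9 CPM over all cells, its ratio between cluster 7 and the other cells was 25.4 (22.8 to 28.4), and cluster 7 held 50.8% of the UMIs of the Gsta1 and Gsta2 pair. Gsta2 was then no longer confined.

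Besides Gsta1 and Gsta2, 4 members were at least 2-fold higher in cluster 7 with an interval above 1. These were Gsto1, at 2262 CPM against 490 outside (ratio 4.61, 4.41 to 4.83), Gsta4, at 2207 against 536 CPM (4.12, 3.93 to 4.31), Gsta3, at 430 against 149 CPM (2.88, 2.60 to 3.19), and Mgst3, at 160 against 57.6 CPM (2.79, 2.35 to 3.29). So 5 of the 9 members with at least 100 UMIs were higher by this rule, as were 8.67% of the 8653 genes, and the median ratio was 2.79 for the members and 1.05 for all. Cluster 7 entered the account through Gsta1 and Gsta2, and nothing is read from these counts. Without the 10 Gsta1-rich cells Mgst3 had a ratio of 1.97 (1.56 to 2.45) and 4 of the 9 members passed, as did 9.2% of all genes, with Gsta4 at 3.03 and Gsto1 at 3.19. Gsta4 and Gsto1 differ from Gsta1 in being broad at the same time. Every cell of cluster 7 had a UMI of each, and so did 90.5% and 91.5% of the other cells, so cluster 7 held 18% of Gsta4 UMIs and 19.7% of Gsto1 UMIs.

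The other members differed by less than 2-fold, Gstp1 and Gstm1 with intervals above 1. Gstp1 was at 288 CPM in cluster 7, a ratio of 1.74 (1.54 to 1.97), and Gstm1 at 303 CPM, a ratio of 1.26 (1.12 to 1.41). For Gstt1 the ratio was 0.797, with an interval of 0.612 to 1.02 that includes 1. Mgst1 was the only member whose interval lay below 1: 436 CPM in cluster 7 against 662 outside, a ratio of 0.659 (0.598 to 0.724). None of the 9 was lower by 2-fold or more, as 6.58% of all genes were. The 2 microsomal enzymes, Mgst1 and Mgst3, therefore lay on opposite sides of 1.

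**Figure D3:**
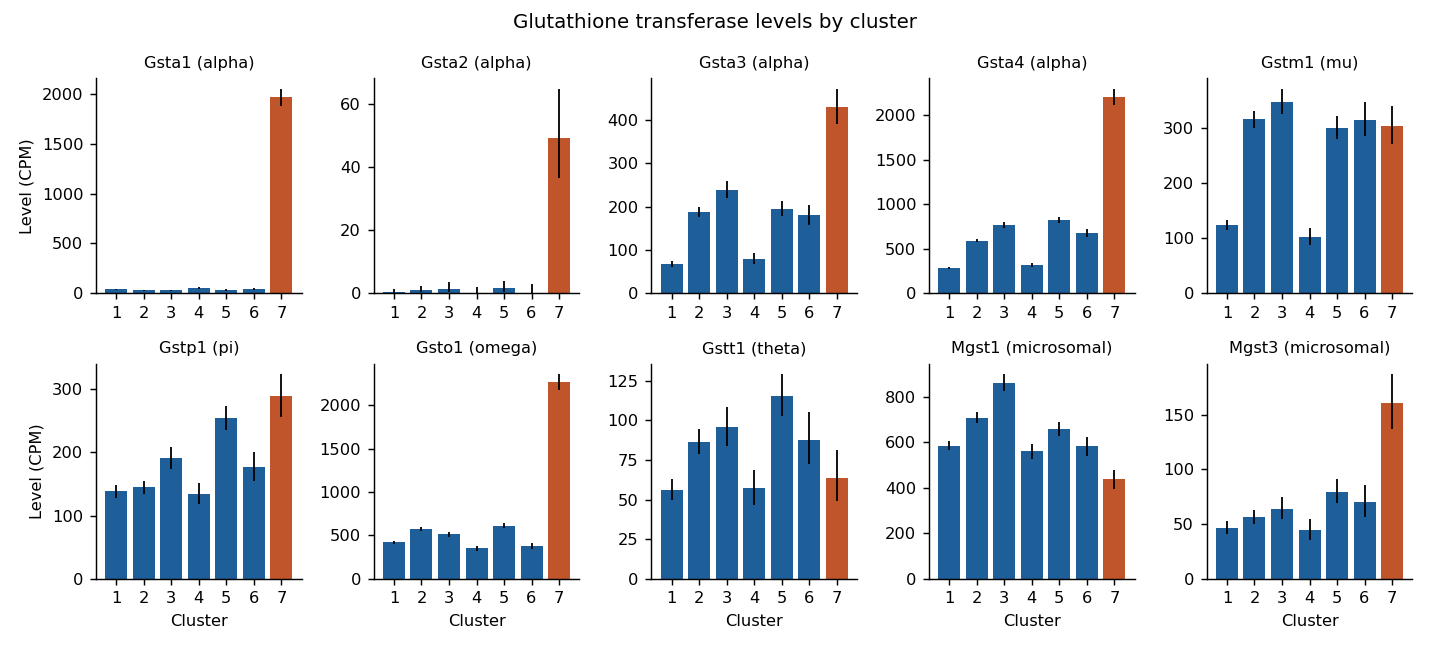
Level of each gene (CPM, linear axes from 0 that differ between panels) in clusters 1 to 7; bars are levels from summed UMIs and lines are exact 95% Poisson intervals. Gsta1 and Gsta2 are near 0 outside cluster 7, Gsta4 and Gsto1 are high there but present throughout, and Mgst1 is lowest there.

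Several other features moved with cluster 7. Of its 62 cells, 33 held a UMI of Kdm5d, Ddx3y, Eif2s3y or Uty, which are Y-linked, or 53.2% (40.1% to 66.0%), against 0.929% of the other cells (0.542% to 1.48%). Xist is the RNA that silences an X chromosome in female cells, and it was detected in 29.0% of cluster 7 and 78.4% of the other cells. Of the 10 Gsta1-rich cells, 8 had a Y-linked UMI and 1 a Xist UMI. The cell with Xist was also among those with a Y-linked UMI, with 3 Y-linked and 9 Xist UMIs. Cells of cluster 7 were also deeper, with a median of 14366 UMIs against 8301, and 64.5% of them were called in S or G2/M phase, against 22.3%. The 7 proliferation markers summed to 624 CPM there, against 78.3 to 1081 CPM in the other clusters. Cluster 6 was alike in depth (a median of 12244 UMIs) and had 100% of cells called in S or G2/M, but 0 cells with a Y-linked UMI. Its Gsta1 level was 36.9 CPM. In cluster 7 the highest tag made up a median of 68.5% of tag UMIs, against 83.2% in the other cells. CMO301 was the highest tag in 56.5% of the cells of cluster 7 and 56.1% of the other cells. What part any of these had in the Gsta1 level was not tested, so it cannot be said whether the confined genes differ between cells of 1 culture or between cells of different origin.

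Within cluster 7 the 33 cells with a Y-linked UMI and the 29 without were both high in Gsta1, at 2440 and 1354 CPM, and both far above the 33.9 CPM of the other cells. The ratio between them was 1.80 (1.64 to 1.99). Without the 10 Gsta1-rich cells the 25 and 27 cells left were at 863 and 860 CPM, a ratio of 1.004 (0.859 to 1.17). Those 10 cells were picked for Gsta1, and 8 of them held a Y-linked UMI. Leaving them out therefore lowers the Gsta1 ratio by construction, and what the difference rested on was not tested. In part this also holds for Gsta4, which had r of 0.759 with Gsta1 in cluster 7. For Gsta4 the ratio was 1.40 (1.28 to 1.53) with the 10 cells and 1.05 (0.937 to 1.17) without them, and for Gstt1 1.74 (1.01 to 3.12) and 1.52 (0.791 to 2.97). For Gsto1 it was 2.0 (1.83 to 2.20) and 1.55 (1.38 to 1.74), and for Gsta3 1.70 (1.38 to 2.09) and 1.59 (1.25 to 2.03). Gsta2 had 41 against 9 UMIs, a ratio of 3.53 (1.69 to 8.27), and 15 against 6 without the 10 cells (2.85, 1.04 to 8.96). With all cells the intervals for Gstm1, Gstp1, Mgst1 and Mgst3 included 1. The median depth of the 2 sets was alike, at 14281 and 14450 UMIs, and a cell without a Y-linked UMI may still carry a Y chromosome.

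Gastric markers also differed in cluster 7, and their part in the result was not tested. All 5 pit markers were detected, and their summed level was 5325 CPM in cluster 7 against 137 to 417 CPM in the other 6 clusters. Mucous neck markers summed to 383 CPM, against 14.4 to 44.5, with Muc6 at 0 in cluster 7. Of 4 chief markers found in the matrix, 3 (Pga5, Cblif and Cym) were at 0 in all cells, and Pgc was at 50.2 CPM in cluster 7 and 1.05 outside. The epithelial markers were at 4203 and 4102 CPM. Hepatocytes are rich in alpha-class transferases, and 3 of their 4 markers (Alb, Serpina1a and Fgb) had no UMI in any cell, while Ttr had 5 UMIs, at 0.984 CPM in cluster 7 and 0.209 outside. Of 7 enterocyte markers, Fabp1, Alpi and Cdx1 had none, and the summed level was 110 CPM in cluster 7 against 23.2 to 44.5 CPM in the other clusters. Most of that difference came from Apoa1 (53.1 CPM in cluster 7 against 2.62 outside) and Vil1 (32.5 against 10.5). Cdx2 differed less (23.6 against 18.7) and Fabp2 was lower in cluster 7 (0.984 against 3.72).

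A second difference lay among the remaining clusters and was noticed after the levels had been seen. In clusters 1 and 4, both with Ndrg1, a gene known to respond to hypoxia and stress, among their leading genes, Gsta3, Gsta4 and Gstm1 were low. Over these 723 cells Gsta3 was at 70.6 CPM, against 199 in the 1107 cells of clusters 2, 3, 5 and 6, a ratio of 0.355 (0.322 to 0.391). Gstm1, the mu-class enzyme that is polymorphic in humans, was at 118 against 318 CPM (0.370, 0.343 to 0.398), and Gsta4 at 289 against 692 CPM (0.418, 0.398 to 0.438). These 3 of 9 members were lower by at least 2-fold, and 0 were higher; of all genes, 3.76% were lower and 1.11% higher. The other 6 were within 2-fold, from Gstt1 at 0.592 (0.527 to 0.663) to Gsta1 at 1.37 (1.17 to 1.61), the only one above 1.

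The clusters were grouped and the genes singled out because of these levels, so nothing further is read from them. Taken singly, clusters 1 and 4 had ratios of 0.341 and 0.396 for Gsta3, 0.405 and 0.455 for Gsta4, and 0.387 and 0.320 for Gstm1. The 2 clusters differed in depth, with medians of 11456 and 5891 UMIs per cell, and the compared clusters lay between 6976 and 12244. After thinning to 3000 UMIs, Gstm1 had a UMI in 28.9% and 25.3% of the cells of clusters 1 and 4, against 47.0% to 56.9% in clusters 2, 3, 5 and 6. Gsta3 had one in 17.5% and 16.4%, against 37.3% to 42.8%. Among other transferase genes Gstm2 was lower to a similar extent, at 80.2 against 223 CPM (0.359, 0.328 to 0.393). Gstm4 had a ratio of 0.494 (0.334 to 0.717) and Alox5ap of 0.271 (0.162 to 0.433), while Gm3776 was higher at 2.71 against 1.28 CPM, from 20 and 15 UMIs.

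Outside cluster 7, Mgst1 ran from 559 CPM in cluster 4 to 860 CPM in cluster 3, Gstp1 from 134 in cluster 4 to 254 in cluster 5, and Gstt1 from 56.1 in cluster 1 to 116 in cluster 5. Gsto1 was highest outside cluster 7 in cluster 5, at 614 CPM, and lowest in clusters 4 and 6, at 351 and 373 CPM. Outside cluster 7, cells called in S or G2/M differed little from cells called in G1: 0 of 9 members passed 2-fold, where 2.02% of all genes were higher and 0.312% lower, and Gsto1 had the ratio farthest from 1, 0.808 (0.765 to 0.852). With cluster 7 included, Gsta1 had a ratio of 2.76 (2.56 to 2.99) in the same comparison. Between cells with CMO301 and CMO302 highest, 0 of 9 members passed 2-fold, and of all genes 0.0462% were higher and 0.139% lower. Gsta1 differed most, at 145 against 115 CPM (1.25, 1.16 to 1.36), and within each tag the same 5 members were at least 2-fold higher in cluster 7, with Gsta1 ratios of 53.4 and 65.0; of all genes, 8.83% and 8.27% were.

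Levels per cell were then correlated between members on ln(1 + counts per 10000 UMIs). These values describe cells of 1 library, which share its depth and composition. Within cluster 7 Gsta1 and Gsta4, neighbours on chromosome 9 with 66.5% coding identity, had a Pearson r of 0.759 over 62 cells, and Gsta1 and Gsto1 0.449. Over the 1830 other cells the same pairs had 0.0101 and -0.0464. Gsta3 and Gsta4 had 0.563 inside and 0.360 outside, and Gsta4 and Gstm1 the reverse order, 0.152 and 0.379. Mgst1 had values near 0 with Gsta1 in both sets, -0.0332 and -0.0873.

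**Figure D4:**
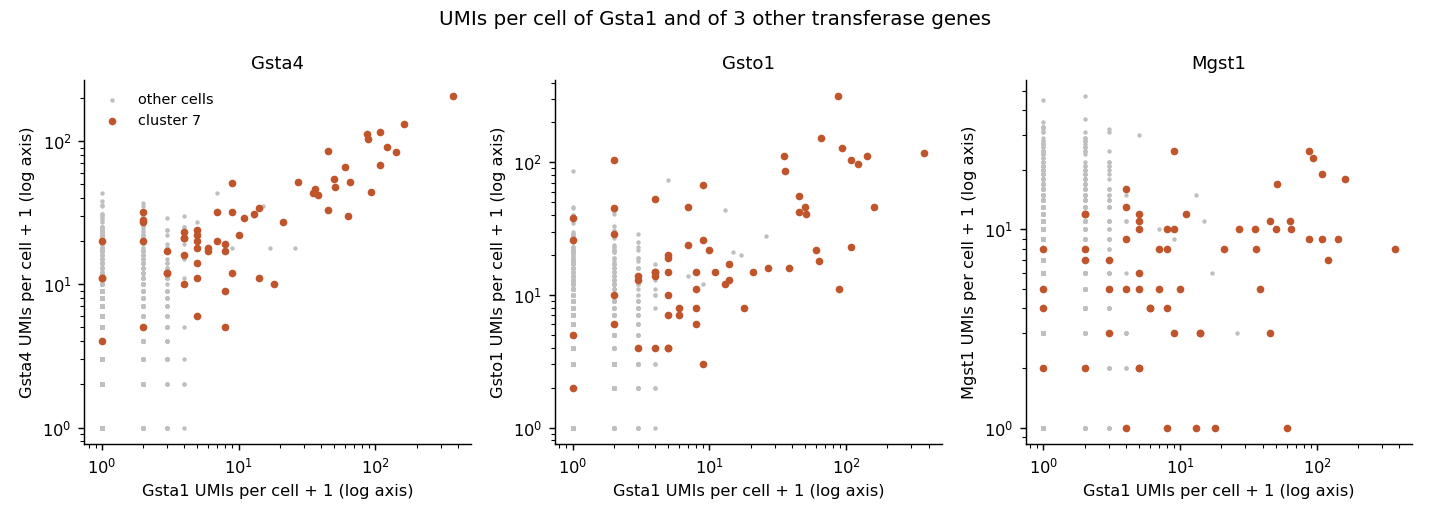
UMIs per cell of Gsta4, Gsto1 and Mgst1 (vertical, plus 1, log axis) against UMIs of Gsta1 (horizontal, plus 1, log axis), 1 point per cell. In cluster 7, cells with more Gsta1 also had more Gsta4 (r of 0.759) and Gsto1 (0.449), while Mgst1 had r of -0.0332; the other cells have at most 25 Gsta1 UMIs.

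Over all 1892 cells, and among genes with at least 100 UMIs, the genes most like Gsta1 were Gm3776 (r of 0.525), Cyba (0.376), Aldh3a1 (0.348), Sptssb (0.348) and Sult1c2 (0.346), all high in cluster 7. Gsta2, below that limit of UMIs, had r of 0.369 with Gsta1. Gsta4 was most like Wfdc2 (0.486), Tmsb4x (0.467), Prdx1 (0.448), Aspa (0.418) and Gsta3 (0.400). Gsta3 was in turn most like Gsta4, then Tmsb4x (0.341), Wfdc2 (0.334), Tmem176b (0.331) and Gpx2 (0.331). Tmsb4x (0.422), Tmem176b (0.403), Tmem176a (0.396), Gsta4 (0.375) and Gstm2 (0.359) were closest to Gstm1. For Gstp1 only Prdx1 (0.322) reached 0.3, and for Gsto1 only Gsta4 (0.327) and Clu (0.323). No gene did so for Gstt1, Mgst1 or Mgst3.

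Among the remaining transferase genes, Gstm2, Gstm5, Eef1g and Clic1 were broad and only Gm3776 was confined. Of all genes with at least 100 UMIs, 15.4% were broad and 2.11% confined. Of 27 listed, 25 were in the matrix and 18 had at least 100 UMIs. Gstm2 was at 166 CPM with a UMI in 64.2% of cells, Gstm5 at 99.2 CPM in 56.8%, and Gstt3 at 65.7 CPM in 43.1%. Gstp2 had a UMI in 26.8% of cells, Gsto2 in 6.71%, and Gstm3, Gstm4 and Gstm7 in 2.80%, 8.35% and 9.51%. These genes had lower levels than Gstp1, Gsto1 and Gstm1, and were neither broad nor confined. Eef1g, a translation factor with a transferase-like domain, and Clic1, a chloride channel protein of the same fold, were broad as well, at 352 and 234 CPM. Gm3776 was at 10.8 CPM from 217 UMIs, had a UMI in 2.59% of cells and reached 50% of its UMIs in 5 cells. Its quotient of observed to even detection, 0.244, was below that of Gsta1. In cluster 7, 3 of the 18 were higher and 2 lower, where 8.67% and 6.58% of all genes were. Higher were Gm3776 (179 against 1.83 CPM), Mgst2 (71.8 against 25.8) and Gstt2 (26.6 against 12.6). Lower were Ptges, a prostaglandin E synthase of the membrane family (11.8 against 86.0 CPM), and Alox5ap, a related membrane protein without transferase activity (1 against 144 UMIs, a ratio of 0.131 with an interval of 0.00328 to 0.739). The other 13 had ratios from 0.832 for Gstm2 to 1.88 for Gstm4.

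Genes that make or use glutathione were set beside the transferases in cluster 7. Of 8 glutathione supply genes with at least 100 UMIs, 5 were higher and 0 lower, where 8.67% and 6.58% of all genes were, and the median ratio was 2.61 against 1.05 for all genes. They were Slc7a11, the cystine importer, at 113 against 21.4 CPM (5.29, 4.26 to 6.52), Gclc and Gclm, the subunits of the rate-limiting ligase, at 4.73 and 2.83 times, glutathione reductase Gsr at 3.82 and glutathione synthetase Gss at 2.40. Slc3a2, the partner chain of Slc7a11, had a ratio of 0.956 (0.783 to 1.16), G6pdx 1.43 and Glrx 0.772. Of 5 peroxidases 1 was higher, Gpx2, an enzyme typical of the gut lining, at 1813 against 335 CPM (5.41, 5.13 to 5.69), while Gpx1 was at 1.28, Gpx8 at 1.25, Prdx6 at 1.21 and Gpx4 at 0.914. Abcc1, Abcc3 and Abcc4, which pump conjugates out of cells, were within 2-fold, with ratios of 0.981, 0.904 and 1.03.

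Among 10 further detoxification genes 8 were higher in cluster 7, against 8.67% of all genes, from Hmox1 at 2.18 (1.45 to 3.17) to Aldh3a1, an aldehyde dehydrogenase, at 22.4 (18.2 to 27.6). Cbr3 (5.13), Aldh1a1 (6.54), Srxn1 (4.84), Txnrd1 (3.18), Ephx1 (2.81) and Akr1b8 (2.28) lay between. Cyp2f2, a cytochrome P450, was lower at 33.5 against 157 CPM (0.213, 0.147 to 0.298). Nqo1, a classical NRF2 target, had only 43 UMIs, 19 of them in cluster 7. Of 7 regulators with enough UMIs, Nfe2l2 was higher, at 456 against 168 CPM (2.71, 2.46 to 2.99), and its inhibitor Keap1 had a ratio of 1.32 (0.885 to 1.90). Ahr was at 1.80, and Cdx2, Mafg, Bach1 and Arnt had intervals that include 1. Without the 10 Gsta1-rich cells, Gss and Hmox1 no longer passed, and 4 of 8 supply genes and 7 of 10 detoxification genes did, as did 9.2% of all genes.

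**Figure D5:**
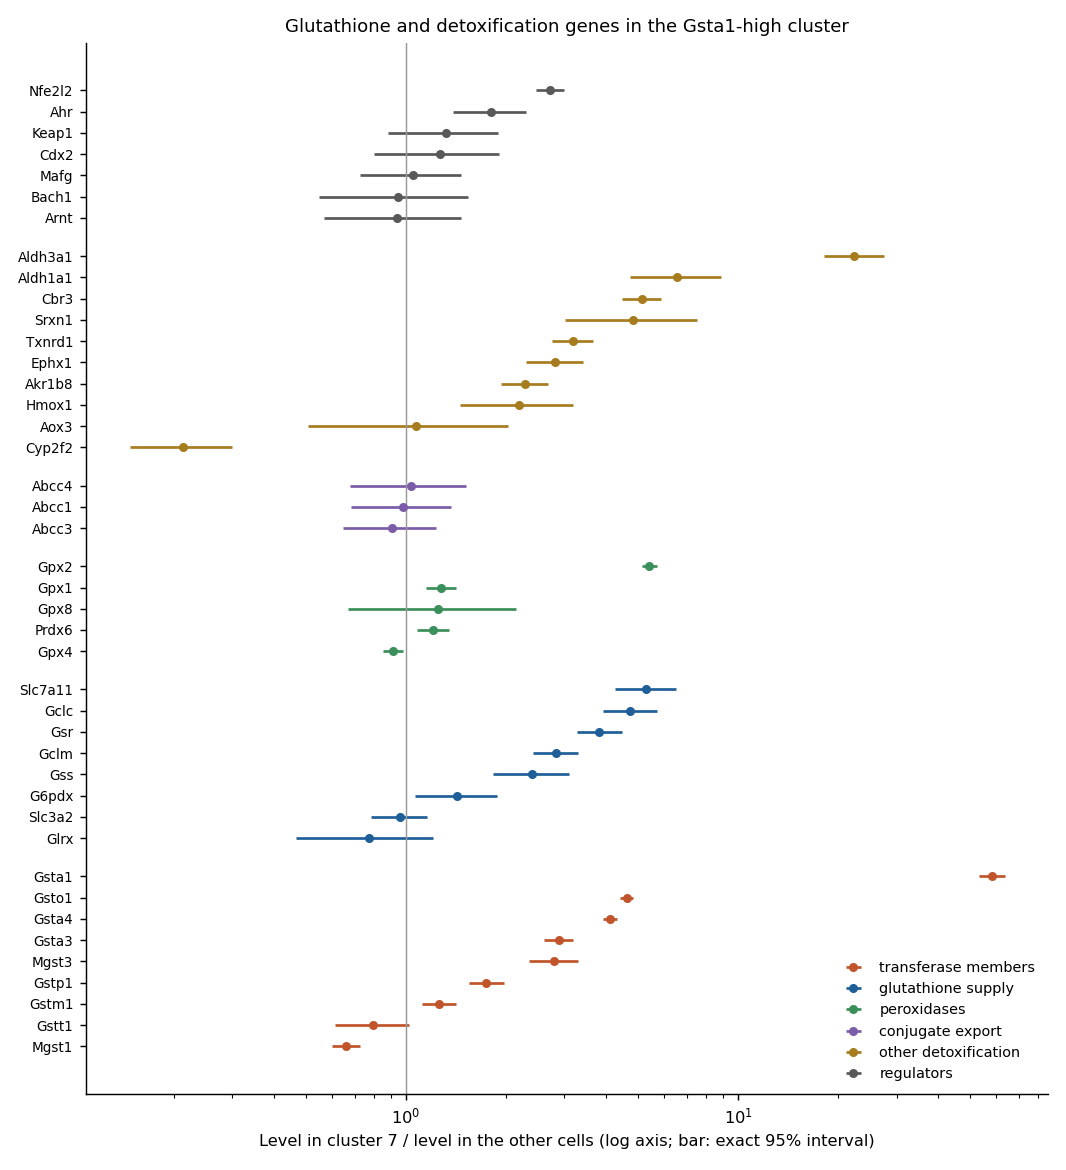
Ratio of the level in cluster 7 to the level in the other cells (log axis) for members and for genes of the supply, peroxidase, export, detoxification and regulator lists with at least 100 UMIs, with exact 95% intervals; the line is at 1. Of the genes drawn, Gsta1 (58.0) and Aldh3a1 (22.4) are farthest to the right, the export genes lie around 1, and Mgst1 (0.659) and Cyp2f2 (0.213) are to the left.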

How the data were processed

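Cell Ranger 6.1.2 and the builds GRCm38 and mm10 are named in the submitters' processing notes. The annotation used for counting is not given in the sources used here. The deposited matrix holds raw UMI counts per gene and barcode, which the authors did not normalize. From these counts the filter, CPM, shares, even-level shares, ratios (with 1 library, no test) and clusters were computed with scanpy 1.11.5, leidenalg 0.10.2 and scipy 1.17.1. Tag UMIs were left out. Clustering used 2000 variable genes, counts scaled to 10000 per cell, ln(x + 1), 30 components, 15 neighbours and resolution 0.6. Intervals are exact: Poisson for CPM, Clopper-Pearson for shares, and conditional binomial for ratios. Doublets were called with Scrublet at an expected 1.59%, kept, and removed in an alternative. Sequences were aligned with Biopython 1.88.

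The members, lists and thresholds were chosen with earlier results of these data known. Genes named are taken from the members, the listed transferase genes with at least 50 UMIs, genes of the glutathione, detoxification, regulator, marker and sex-linked lists, leading genes of clusters, and for each member the 5 genes of highest r, where r was at least 0.3. From the export list 1 gene was left out and is not reported here. The scripts were tested on simulated data.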

Additional observations from a re-analysis of the deposited data

How the results depend on the processing

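No paired analysis was possible because only 1 library, with no replicate, was analysed. Of 111 values recomputed under 20 alternatives, 69 stayed within their counting interval or, for counts of genes, within 1.5 times the main count. The number of broad members was 3 (Gsta4, Gsto1 and Mgst1) with cells thinned to 3000 UMIs. It was 7 (Gstt1 added) under the stricter filter given below, and 8 (Gstt1 and Mgst3 added) at a line of 30% of cells. The number of confined members was 1 (Gsta1) after thinning, 1 (Gsta1) without the 10 Gsta1-rich cells and 0 without cluster 7. With the quotient under 0.9 it was 3 (Mgst3 added). The counts under the stricter filter, the 30% line and the 0.9 quotient are among the 69 by that rule. The share of Gsta1 and Gsta2 UMIs in the cluster with their highest level was 77.3% at resolution 0.3 (a cluster of 152 cells), 77.6% with 1000 variable genes (156 cells), 77.4% with at least 1000 genes and at most 10% mitochondrial UMIs per cell, and 50.8% without the 10 cells. The omission of the 10 cells was chosen after seeing the data. The alternatives without cells, with a stricter filter or with thinning hold fewer cells or less depth by construction, and at resolution 0.3 and with 1000 variable genes the cluster was larger. In each of the 8 other clusterings run, 59 to 62 of the cells of cluster 7 were in the cluster richest in Gsta1 and Gsta2. The Gsta1 level was 33.9 CPM without cluster 7, 95.4 CPM as a mean over cells, and 104 CPM with tag UMIs in the total. Depth limits Gsta2 most, since it rests on 64 UMIs.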
